A study of Drosophila melanogaster with 4 samples.

Results

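Broad domains of RNA polymerase II on the large autosomes of Drosophila melanogaster Clone 8 cells (CME-W1-Cl.8+, a male line whose labels give its source as dorsal mesothoracic disc, the larval wing disc, at the third instar stage) are described here. The domains are the enriched regions on the arms 2L, 2R, 3L and 3R that were 8000 bp or wider in the list deposited for the series and that shared at least 1 bp with an enriched region of each of the 2 chromatin immunoprecipitation (ChIP) replicates. This rule took 351 of the 4186 enriched regions on these arms (8.39%), or 10.3% of those found in both replicates. The whole series list held 5517 enriched regions. The domains were thus chosen by their measured width and by their presence in both replicates, so no test of these domains is independent of that choice, and all values below are descriptions.

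The study holds 4 samples, 2 ChIP replicates and 2 input DNA libraries, all from formaldehyde-fixed, sonicated cells of the same untreated line. The antibody was a mouse monoclonal, ab5408, whose target is YSPTSPS, the heptad that is repeated along the carboxy-terminal domain of the polymerase. Whether the replicates were separate cultures is not stated in the labels, so a standard deviation (SD) over n = 2 may hold technical spread alone. No list of the input libraries was analysed here, and with no read counts in the lists the depth of each library is unknown.

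RNA polymerase II transcribes the protein-coding genes. It is loaded at promoters, in Drosophila often pauses shortly after the start site, and then moves through the body of the gene while the repeats of its carboxy-terminal domain are modified. An antibody against these repeats can therefore mark a compact site at a promoter, or a long stretch where polymerases are spread over a gene body or over neighbouring genes. The lists name no genes, and no annotation of their build was used here, so the domains are given by position on FlyBase r5, the build in the file headers.

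The domains were a small part of the regions and a large part of the sequence in them. They spanned 5.19 Mb, which was 30.7% of the 16.9 Mb in enriched regions on these arms and 5.37% of the arms themselves. The median width was 10973 bp, with quartiles of 9240 and 16280 bp. In the 3050 compact regions, those under 8000 bp that were likewise found in both replicates, the median was 2822 bp. Of the domains, 223 were 10 kb or wider, 47 were 20 kb or wider and 16 were 30 kb or wider. Those 16 held 18.3% of the sequence in domains.

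No region of 8000 bp or more on these arms was left out by the demand for both replicates. All 351 overlapped each replicate, against 81.2% of all regions on these arms and 79.5% of those under 8000 bp. Just inside the width limit lay 3 domains of 8035, 8037 and 8043 bp with scores in the series list of 0.89, 1.42 and 1.87. Just outside were 3 regions of 7963, 7955 and 7935 bp with 1.60, 1.08 and 1.21, so scores on both sides of the limit overlapped. The score is the authors' value for a region. The spacing of repeated values reads as a log2 ratio, and which quantities were divided is not stated in the labels or headers.

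The replicates alone held fewer regions of such width. Replicate 1 had 262 among 3951 regions on these arms (6.63%) and replicate 2 had 248 among 3927 (6.32%). The share in the series list was 8.39%. Of these wide replicate regions, 260 and 243 overlapped a domain. Within the domains, 246 contained a stretch of 8000 bp or more from a single region of replicate 1, and 230 contained one of replicate 2. Such a stretch was present in both replicates for 199 domains, in exactly 1 replicate for 78 and in neither for 74. The 74 had a median width of 9410 bp and reached 17537 bp at most. Their median score over the replicates was 1.37, compared with 1.69 and a median width of 13535 bp in the 199.

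A replicate usually covered a domain nearly from edge to edge. Pooled over all domains, 93.7% of their sequence lay in regions of replicate 1 and 91.8% in regions of replicate 2, a mean of 92.7% ± 1.3 (SD, n = 2). In compact regions the same share was 91.5% ± 0.7. Both replicates covered 88.2% of the sequence in domains. A further 5.50% lay in replicate 1 alone, 3.62% in replicate 2 alone and 2.71% in neither. Under 80% was covered in 38 domains by replicate 1 and in 48 by replicate 2, down to 37.7% and 42.0% in the least covered.

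Domains were cut into pieces more often than compact regions were. Of the 351 domains, 169 (48.1%) were 1 region in each replicate, whereas 88.9% of all regions found in both replicates on these arms, and 93.5% of the compact ones, were. Another 92 domains were split in a single replicate, 42 in replicate 1 and 50 in replicate 2, and 90 were split in both. Replicate 1 held 219 domains as 1 region, 92 as 2, 28 as 3 and 12 as 4 or more. Replicate 2 held 211 as 1 region, 102 as 2, 22 as 3 and 16 as 4 or more. The number of pieces was the same in both replicates for 224 domains, higher in replicate 2 for 68 and higher in replicate 1 for 59.

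A wide region has more room for a break, and no region in the replicate lists was narrower than 1301 bp in replicate 1 or 1303 bp in replicate 2. Per 10 kb of sequence there were 0.40 ± 0.04 breaks in domains and 0.12 breaks in compact regions in either replicate. The rate was 0.37 ± 0.01 per 10 kb in domains of 8 to 10 kb, 0.42 ± 0.03 at 10 to 15 kb, 0.46 ± 0.08 at 15 to 20 kb, 0.37 ± 0.08 at 20 to 30 kb and 0.38 ± 0.17 at 30 kb or more. Compact regions of 5 to 8 kb had 0.28 ± 0.02, and those of 2 to 5 kb had 0.045 ± 0.007, so the widest step between neighbouring classes lay among the compact regions. The share held as 1 region by a replicate was 68.8% at 8 to 10 kb in each replicate and 46.9% ± 13.3 among the 16 domains of 30 kb or more, against 82.7% ± 0.8 at 5 to 8 kb.

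**Figure D1:**
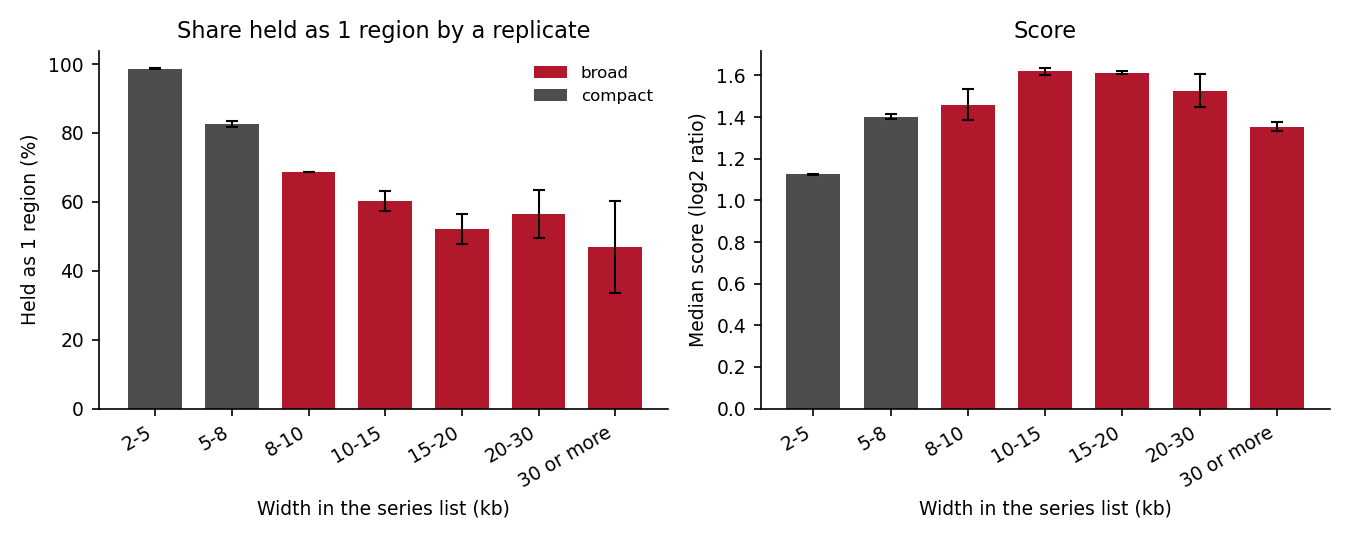
Share of regions that a replicate held as 1 region (left, %) and median score (right, log2 ratio) by width in the series list, with broad domains in red and compact regions in grey. Bars are means of the 2 ChIP replicates and error bars are SD; the share is lowest, 46.9%, at 30 kb or more, and the score is highest at 10 to 15 kb.

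Most breaks were under 1000 bp. The median break in a domain was 445 bp in replicate 1 (194 breaks) and 509 bp in replicate 2 (223 breaks). Under 100 bp were 37 and 39 of them, and 47 and 71 were 1000 bp or longer. Breaks in compact regions were shorter, with medians of 228 bp in replicate 1 and 209 bp in replicate 2 (123 breaks in each). Of these, 18 and 10 were 1000 bp or longer. When replicate regions within 1000 bp of each other were joined, 78.3% of domains were 1 region in each replicate. The breaks seldom fell at the same place. A break of the other replicate lay within 500 bp for 29.4% of the breaks of replicate 1 and 25.6% of those of replicate 2, and for 39.0% and 36.1% within the 90 domains split in both.

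Where a domain was 1 region in each replicate, its edges were close in both. The median distance between the replicates was 87 bp at the start and 69 bp at the end, and both edges were within 500 bp in 128 of the 169 (75.7%). Among compact regions held as 1 region in each replicate both edges were this close in 86.0%. Regions of a replicate seldom ran on past a domain. In replicate 1 they passed the lower edge by over 500 bp in 6 domains and the upper edge in 5, and in replicate 2 in 0 and 2.

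The scores of the domains lay in a narrower band than those of the compact regions of all widths. The median score of a domain, weighted by the width of its pieces, was 1.52 in replicate 1 and 1.55 in replicate 2, a mean of 1.53 ± 0.02 (SD, n = 2), and in compact regions it was 1.13 ± 0.005. The difference of 0.40 ± 0.02 on the log2 scale is a 1.32-fold step of the ratio. It was larger low in the range. At the 5th percentile domains scored 0.89 ± 0.01 and compact regions 0.35 ± 0.05, and at the 25th percentile 1.28 ± 0.02 and 0.71 ± 0.02. At the 95th percentile the order was the other way, with 2.42 ± 0.08 in domains and 2.52 ± 0.09 in compact regions, a difference of -0.11 ± 0.02 that was below zero in each replicate. The highest domain reached 3.90 ± 0.19, below the 4.22 ± 0.16 of the highest compact region. The classes on either side of the width limit lay closer together. Compact regions of 5000 to 8000 bp had a median of 1.40 ± 0.01, and domains of 8000 to 10000 bp had 1.46 ± 0.07. From the 5th to the 95th percentile their mean scores ran from 0.74 to 2.44 and from 0.91 to 2.33. The difference of 0.40 thus holds against compact regions of all widths, not against those closest in width.

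Few domains were weak. Mean scores under 1 occurred in 35 domains (9.97%) and in 1280 of the compact regions of all widths (42.0%). Compact regions of 5000 to 8000 bp, the closest to the domains in width, were not counted apart. Scores from 1 to 2 made up 70.9% of domains and 42.5% of compact regions, while 2.5 or more was reached by 15 domains (4.27%) and 156 compact regions (5.11%). Among the domains, mean score had no steady rise or fall with width, with a Spearman's rho of 0.025 across 351 domains. Across the 3050 compact regions it was 0.48. Regions of the same libraries are not independent, and these coefficients describe the lists only.

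**Figure D2:**
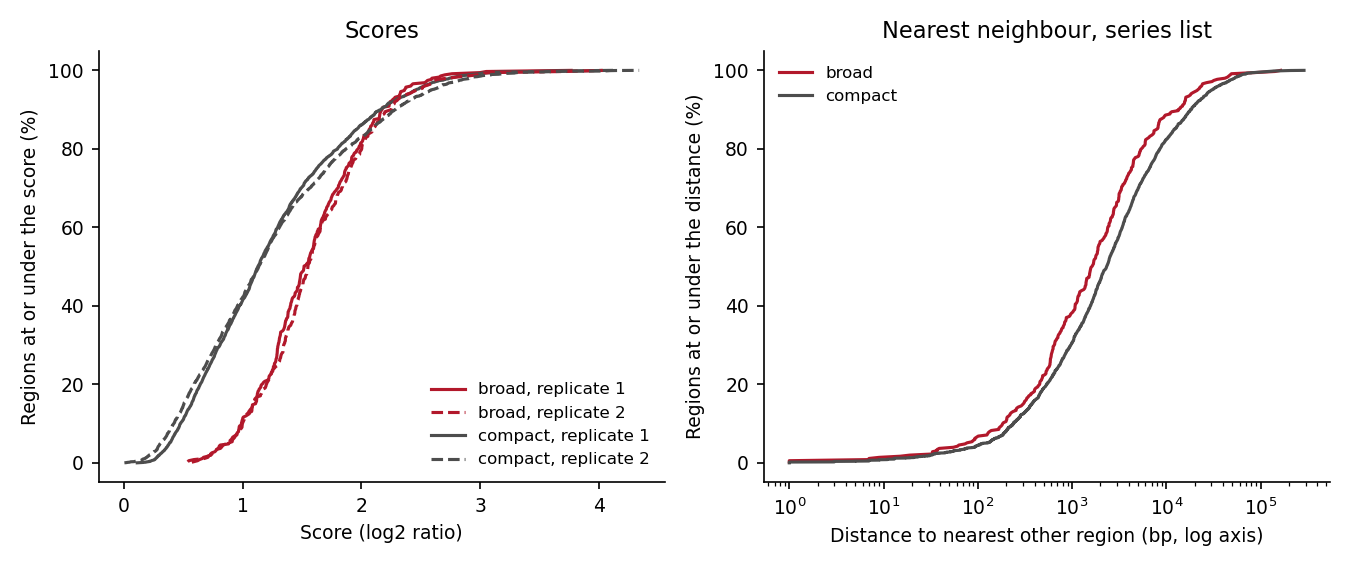
Left, cumulative share of broad domains (red) and compact regions (grey) at or under a given score (log2 ratio) in each replicate; right, cumulative share at or under a given distance to the nearest other region of the series list (bp, log axis). The red curves start later on the score axis and cross the grey ones near the top, and lie to the left on the distance axis.

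The replicates gave nearly the same score to a domain. The 2 scores differed by a median of 0.09, against 0.13 in compact regions, and by less than 0.25 in 314 domains (89.5%) and in 79.7% of compact regions. Pearson's r across the 351 domains was 0.94 and Spearman's rho 0.93, a description of 2 libraries that share their method and the sequence measured. Only 4 domains differed by more than 0.5. The largest difference was on 3R (17120962 to 17133242), with 2.24 in replicate 1 and 3.72 in replicate 2. Here replicate 1 set a 5.95 kb region of 3.49 beside a 9.52 kb region of 1.04 that ran past the domain's end, and replicate 2 had only the high part, as a single region that covered 70.8% of the domain. On 2R (19324450 to 19333804) replicate 1 had pieces of 0.84 and 0.59 and replicate 2 a single region of 1.58.

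The other 3 of the 5 largest differences had higher scores in replicate 2 as well. A 9929 bp domain on 2R (10242562 to 10252490) scored 2.42 in replicate 1 and 2.98 in replicate 2. On 3R (25924084 to 25941328) the scores were 1.03 over 3 pieces and 1.55 over a single region. The fifth, on 3L (3898082 to 3906342), scored 2.33 and 2.81. Over all domains the direction was mixed, with 192 of 351 higher in replicate 2.

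Score went with fragmentation. Domains held as 1 region in each replicate had a median score of 1.77 ± 0.03 (SD, n = 2), those split in a single replicate 1.44 ± 0.04 and those split in both 1.33 ± 0.05. Their median widths were 10603, 10872 and 12395 bp. In the compact regions the same 3 classes had 1.13 ± 0.005, 1.21 ± 0.01 and 1.04 ± 0.01. The class comes from the same signal as the score, and whether low signal or the calling thresholds set the breaks was not tested.

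**Figure D3:**
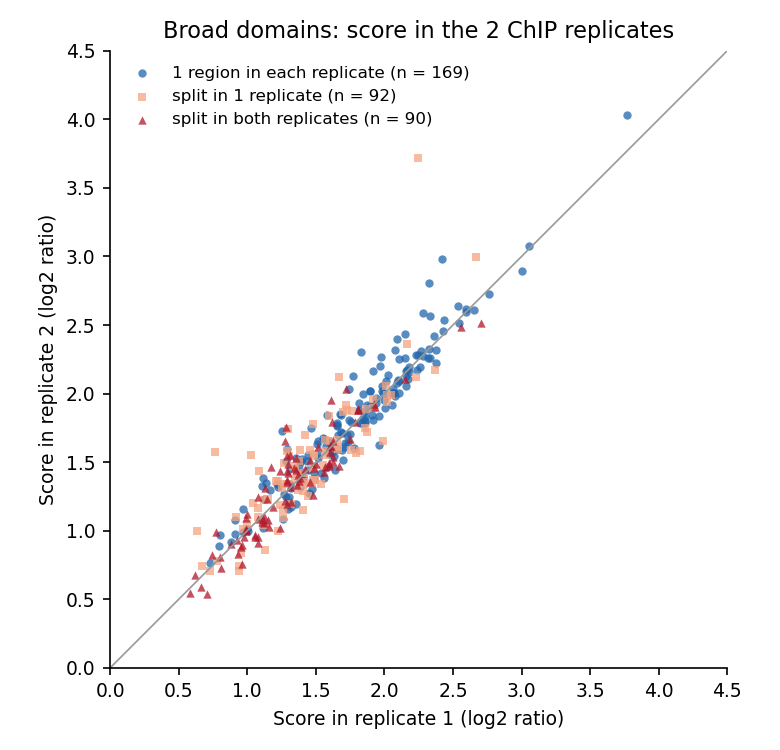
Score of each of the 351 broad domains in replicate 1 (x axis) and replicate 2 (y axis), both as log2 ratios, by the number of pieces in the replicates; the line marks equal scores. Domains held as 1 region in each replicate (blue circles, median 1.77) reach higher than those split in both (dark red triangles, median 1.33).

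The pieces of a split domain were unequal. In the 132 domains split in replicate 1 the highest piece exceeded the lowest by a median of 0.77, and in the 140 split in replicate 2 by 0.79. The gap was 1 or more in 46 and 52 of them, and reached 2.45 and 2.35. The widest piece was also the highest in 100 of the 132 and in 96 of the 140. Where a domain had 2 pieces, the narrower held a median of 30.7% of their summed width in replicate 1 and 31.6% in replicate 2.

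The highest piece tended to lie at an end of the domain, a pattern looked for after the pieces had been seen. Of the 40 domains with 3 or more pieces in replicate 1, the highest was the first or last piece in 32, and of the 38 in replicate 2 it was in 31. End pieces made up 56.3% and 47.8% of the pieces in these domains, pooled so that domains of many pieces weigh most. Exactly 3 pieces, of which all but the middle one are ends, were present in 28 of the 40 and 22 of the 38. An end piece can also take up most of a domain, and the widest piece was often the highest. How far the counts exceed the share of ends per domain was not tested. The lowest piece was at an end in 19 and 13. The side was mostly shared by the replicates. When each domain split in both was divided at its midpoint and sequence without a called region was set to 0, the same side had the higher mean score in both replicates in 71 of 90 domains (78.9%). The higher side was the one with lower coordinates in 35 and the one with higher coordinates in 36. In all 27 domains where the sides differed by 0.5 or more in each replicate, the same side was higher in both.

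The widest domains show both kinds of layout. On 3L (22279990 to 22402138) 122149 bp formed an unbroken region in each replicate, with scores of 1.49 and 1.42 in replicates 1 and 2, and 99.9% of it was covered by each. The next unbroken domains all lay on 3R. They were 58935 bp wide (19114014 to 19172948) with 1.63 and 1.55, 49413 bp (1086896 to 1136308) with 1.46 and 1.75, 47693 bp (15616360 to 15664052) with 1.39 and 1.40, and 43743 bp (20413792 to 20457534) with 1.44 in each replicate. In these 5 domains the replicates differed by at most 0.29, and the highest score was 1.75.

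Other wide domains consisted of a high piece beside a long stretch of low ones. On 3L (5147412 to 5242668) replicate 2 ended with a 7.42 kb piece of 1.81, after 11 pieces of 0.46 to 1.02, and replicate 1 ended with a 17.0 kb piece of 1.37 after 6 pieces of 0.61 to 1.09. On 3R (4892702 to 4984856) the last 10.0 kb scored 1.64 in replicate 2 and the 10 pieces before it 0.50 to 0.75. Replicate 1 called the last 61.9 kb as a single region of 1.06, so the same sequence was cut at other places. A 29345 bp domain on 2R (11621912 to 11651256) began with a 4.80 kb piece of 2.34 in replicate 2, followed by 6 pieces of 0.37 to 0.80, while replicate 1 held all of it as 1 region of 1.12.

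A pair of neighbouring domains near the tip of 3R were also in many pieces. The first (26101788 to 26143944) opened with an 11.1 kb piece of 1.75 in replicate 1 and an 11.8 kb piece of 1.75 in replicate 2. It went on with 5 pieces of 0.54 to 0.74 in replicate 1 and 7 of 0.44 to 0.61 in replicate 2. The second, 6031 bp further on (26149976 to 26187972), had no high piece, with 6 of 0.59 to 0.71 and 8 of 0.48 to 0.67, and replicate 2 covered 52.3% of it. A 16493 bp domain on 3L (3112390 to 3128882) had 5 pieces in each replicate, with a score of 0.93 in replicate 1 and 0.83 in replicate 2.

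**Figure D4:**
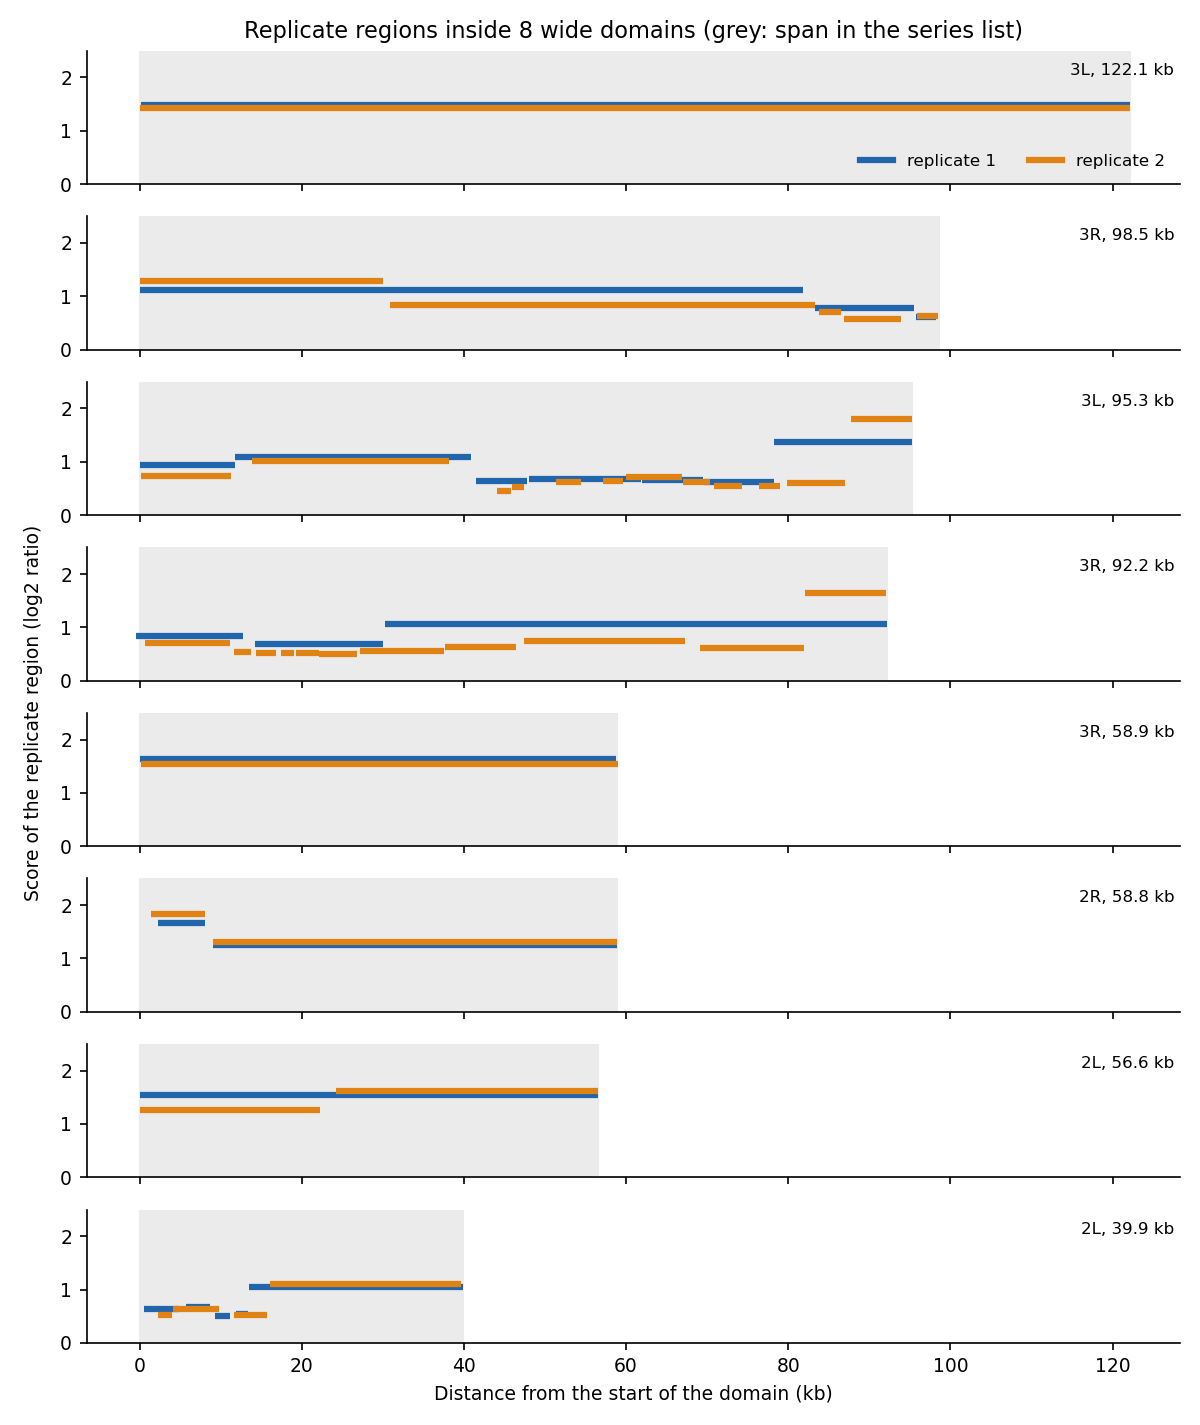
Replicate regions inside the 8 widest of the domains named as the 3 widest of their arm, drawn by distance from the domain's start (kb) at the height of their score (log2 ratio), with replicate 1 in blue, replicate 2 in orange and the span in the series list in grey. The 122.1 kb domain and the 58.9 kb domain on 3R are single lines in both replicates, and the 95.3 kb domain ends in its highest piece in both.

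On 2L the widest domain (489724 to 546282, 56559 bp) was 1 region of 1.55 in replicate 1 and 2 of 1.26 and 1.63 in replicate 2. The next, 39885 bp wide (186664 to 226548), scored 0.93 in each replicate and had its highest piece, of 1.05 in replicate 1 and 1.10 in replicate 2, at the upper end. In the third (2154086 to 2179898, 25813 bp) the upper end again stood out, with 2.00 in replicate 1 and 2.30 in replicate 2, beside 1.09 in replicate 1 and 1.35 and 0.63 in replicate 2. The widest on 2R (5487976 to 5546822, 58847 bp) was split alike by both replicates. A piece of 1.67 in replicate 1 and 1.83 in replicate 2 at the lower end preceded a piece of about 49.8 kb with 1.25 in replicate 1 and 1.31 in replicate 2. Another on 2R (4536020 to 4571360, 35341 bp) was 1 region of 1.48 in replicate 1, and in replicate 2 a 5.74 kb piece of 2.01 before 26.0 kb of 1.23. On 3L a domain (16131486 to 16158882, 27397 bp) had its highest piece at the upper end, 1.59 in replicate 1 and 1.61 in replicate 2. In the 98545 bp domain on 3R (21340508 to 21439052) the first piece was the highest. The pieces scored 1.11, 0.78 and 0.62 in replicate 1 and 1.29, 0.84, 0.70, 0.56 and 0.63 in replicate 2. That first piece was 81.7 kb wide in replicate 1, most of the domain, and 30.0 kb in replicate 2.

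The 3 domains of highest score in the series list on each arm were narrower than the 3 widest there. All 3 on 3R, and the one at 9887086 on 2L, were split in at least 1 replicate. The rest were 1 region in each replicate. On 3L the 8299 bp domain at 11242854 to 11251152 scored 3.77 in replicate 1 and 4.03 in replicate 2, and the 9073 bp domain at 3191386 to 3200458 scored 3.05 and 3.08. On 2R the highest were 20545 bp wide with 3.00 and 2.89 (9212898 to 9233442) and 13109 bp wide with 2.76 and 2.73 (7772084 to 7785192). The first of these had no other region of the series list within 50 kb on either side. On 2L the scores were 2.53 and 2.64 over 22611 bp (5969252 to 5991862), 2.36 and 2.42 over 16577 bp (2744498 to 2761074), and 2.37 and 2.17 over 11537 bp (9887086 to 9898622). On 3R, besides the uneven domain at 17120962, a 17487 bp domain (14737814 to 14755300) scored 2.67 and 3.00, and an 18269 bp domain (2898908 to 2917176) scored 2.56 and 2.48. In the last of these the upper end scored 3.22 in replicate 1 and 3.07 in replicate 2.

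The 5 lowest scores in the series list, 0.48 to 0.64, belonged to domains of 10305 to 37997 bp. The lowest, on 2R (20876070 to 20891282), had 3 pieces in each replicate and scored 0.58 in replicate 1 and 0.55 in replicate 2. It was also the domain nearest the tip of that arm. Besides the second of the paired domains on 3R, the others lay on 3L (3429852 to 3442402) with 0.70 and 0.54, on 3R (20064766 to 20076116) with 0.62 and 0.68, and on 3L (7770026 to 7780330) with 0.67 and 0.75. Each of the 5 was split in at least 1 replicate.

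The domains stood among other regions. The nearest other region of the series list was a median of 1639 bp away, against 2328 bp for compact regions. It was under 1000 bp away for 134 domains (38.2%) and for 30.6% of compact regions, with 31.4% over both kinds, and over 10 kb away for 40 domains (11.4%) and 17.6% of compact regions. Within 50 kb on both sides, other regions covered a median of 26.0% of the sequence around a domain and 21.8% around a compact region. With neighbours taken from the list of replicate 1, the median distance was 2418 bp from a domain and 3017 bp from a compact region, and with those of replicate 2 it was 2521 and 3088.5 bp. The order turned with the least width. For the 47 domains of 20 kb or more the nearest region of the series list was a median of 3095 bp away, and for the narrower regions found in both replicates 2183 bp.

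The nearest neighbour was usually compact and weak. Its width had a median of 2953 bp and its score in the series list a median of 0.77, and for compact regions the nearest neighbour had 2648 bp and 0.93. It was absent from at least 1 replicate for 78 domains (22.2%) and for 17.7% of compact regions. Another domain was the nearest region for 39 domains (11.1%), and a domain was the nearest region for 249 compact regions (8.16%). Domains were 8.39% of all regions on these arms, so a compact neighbour is the common case for either kind. For 9 pairs of successive domains the space between was under 1000 bp. In 1 of them, on 3R (19747476 to 19758652 and 19758652 to 19769908), the series list gave both regions the same base as end and start, and replicate 1 had a single region across that base. None of the other 8 pairs was joined by a region of either replicate.

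Some domains had no close neighbour. The 5 farthest from any other region began with an 8107 bp domain on 2L (15498100 to 15506206), which had 163101 bp free on the lower side and 187791 bp on the upper side. It scored 2.32 in replicate 1 and 2.26 in replicate 2, above the median domain. A 28689 bp domain on 3R (24142522 to 24171210) lay between free stretches of 141917 and 172815 bp and scored 1.81 and 1.88. The others were the domain at 9212898 on 2R, the one at 11621912 on 2R and an 18989 bp domain on 2R (8145740 to 8164728) with 1.34 and 1.46. In all, 25 domains (7.12%) and 7.93% of compact regions had 100 kb or more free on at least 1 side. No region lay within 50 kb on either side of 3 domains (0.85%) and of 70 compact regions (2.30%). The 3 domains were those at 15498100 on 2L, 24142522 on 3R and 9212898 on 2R.

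Domains lay near another domain more often than compact regions did. Within 50 kb of another domain lay 186 of 351 (53.0%), and within 50 kb of a domain lay 1238 of the 3050 compact regions (40.6%). The exact 95% binomial interval of the share among domains, 47.6 to 58.3%, treats domains as independent draws. They are not, since closeness is shared by both domains of a pair, so the interval does not measure the spread of that share. The share among domains depends on the limits set. It was 77.5% at a least width of 5000 bp and 12.8% at 20000 bp, against 71.1% and 6.47% of the regions under those widths, and at 8000 bp it was 32.8% within 20 kb, against 23.5% of compact regions. The 186 domains formed 77 groups, 53 of them pairs and 24 of 3 or more. The largest groups had 5 domains. On 2L (116028 to 307318) 5 domains with mean scores of 0.93 to 2.14 took up 50.5% of 191 kb near the tip, and on 3L (3112390 to 3228686) 5 with 0.88 to 3.06 took up 52.3% of 116 kb. Among the groups of 4, the one with the most sequence in domains was on 3R (16885174 to 17041822), with 40.5% of 157 kb and mean scores of 0.75 to 1.95. Over the 77 groups, the highest and the lowest mean score in a group differed by a median of 0.37, with a range of 0.01 to 2.18. The difference was under 0.5 in 46 groups and 1 or more in 13. Most groups were pairs, and a group of more domains has more room for a wide range. The evenness of these 3 can therefore not be set against that of the rest.

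Long stretches without a domain also occurred. In 13 places 1 Mb or more separated successive domains, of which 5 were on 2L, 3 on 2R, 3 on 3R and 2 on 3L. The longest was 2.12 Mb on 2L (13375357 to 15498099) and held 42 compact regions found in both replicates. The next, 1.87 Mb on 2R (15341289 to 17209655), held 52, and a 1.34 Mb stretch on 2R (6431897 to 7772083) held 54, with 17.2% of its sequence in regions. In a 1.31 Mb stretch on 2L (16830177 to 18136863) there were 18 and the covered share was 3.84%.

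3R had the most domains, 112, or 4.01 per Mb, and they covered 6.79% of the arm. There were 79 on 2R (3.74 per Mb, 4.80%), 78 on 2L (3.39 per Mb, 4.51%) and 82 on 3L (3.34 per Mb, 5.05%). The order of the arms was not that of compact regions, which were most frequent on 2R with 38.4 per Mb, against 30.4 on 3R, 29.6 on 3L and 28.8 on 2L. Domains were 9.52% of the regions of 3R and 7.28% of those of 2R. Of the 16 domains of 30 kb or more, 10 were on 3R and 2 on each other arm.

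The replicates gave the same leading arm. Regions of 8000 bp or more in a replicate list numbered 91 and 80 on 3R in replicates 1 and 2, or 3.06 ± 0.28 per Mb, and covered 4.85% ± 0.44 of it (SD, n = 2). The other arms had 54 and 60 on 2R (2.70 ± 0.20 per Mb), 64 and 53 on 3L (2.38 ± 0.32) and 53 and 55 on 2L (2.35 ± 0.06). The density on 3R was above that on every other arm in each replicate, while the 2 values of 3L overlapped with those of 2R and of 2L. In replicate 2 the lead of 3R over 2R was narrow, with 80 regions on 27905053 bp against 60 on 21146708 bp. Over the 4 arms the covered share was 3.88% in replicate 1 and 3.57% in replicate 2, less than the 5.37% in the series list.

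Within the arms the domains were uneven. Each arm was divided into 10 equal parts counted from the tip, which is the low end on 2L and 3L and the high end on 2R and 3R, and the number of domains in a part ranged from 1 to 15. Pooled over the arms, parts 1 to 10 had 49, 35, 28, 49, 25, 35, 27, 34, 47 and 22 domains, with no steady course from tip to centromere. As a share of domains and compact regions together, domains were highest in part 4 (13.3%, beside 320 compact regions) and part 1 (13.2%, beside 322). The share was lowest in part 5 (7.02%, beside 331), followed by part 10 next to the centromere (7.97%, beside 254), while part 9 had 11.5% (beside 362). On 2L part 7 had 1 domain and 34 compact regions, while part 4 had 15 and 72. On 2R part 3 had 2 and 53, and part 10 had 2 and 57. On 3L part 10 held 4 domains, the widest of all among them, and 26 compact regions.

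**Figure D5:**
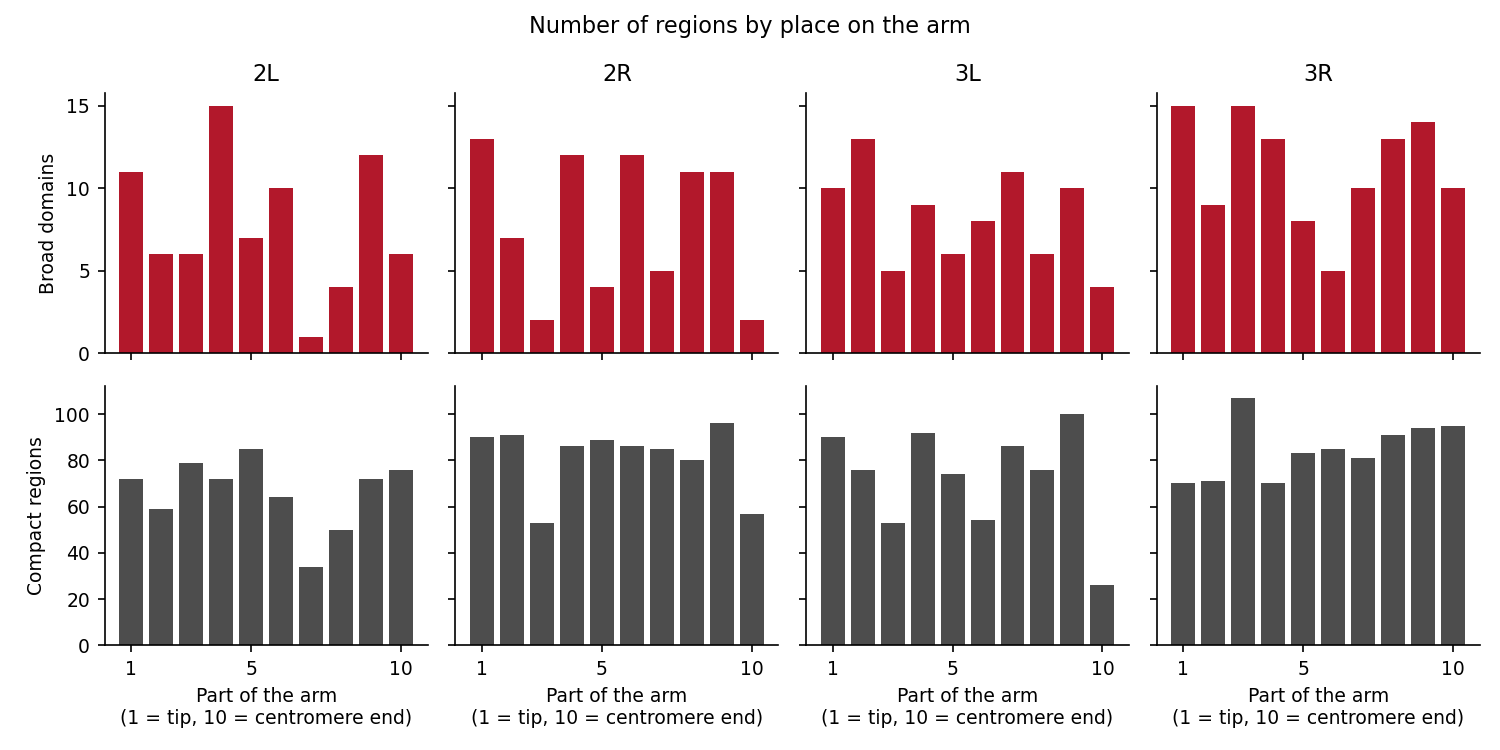
Number of broad domains (top, red) and compact regions (bottom, grey) in 10 equal parts of the arms 2L, 2R, 3L and 3R, with 1 at the tip and 10 at the centromere end of the assembled arm. Domains range from 1 to 15 per part, with the lowest count in part 7 of 2L.

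The outermost domains lay at different distances from the ends of the assembled arms. At the tips, the first domain of 2L began 5041 bp from the end (5042 to 22424), with 1.44 in replicate 1 and 1.25 in replicate 2. The first on 3L was 222377 bp in (222378 to 232820) and scored 2.66 and 2.61, that on 2R was 255426 bp in, and that on 3R was 297203 bp in (27596402 to 27607850) with 1.00 and 1.05. Toward the centromere the last domain was 123587 bp from the end on 3R (123588 to 131984, with 0.73 and 0.71) and 188596 bp on 2L (22811022 to 22822948, with 2.09 and 2.40). It was 1.00 Mb away on 2R (1002526 to 1011156, with 0.94 and 0.74) and 1.60 Mb on 3L (22935652 to 22947466, with 1.12 and 1.39). Beyond these last domains, 20 compact regions followed on 2R and 12 on 3L, and 3 and 8 on 2L and 3R.

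The autosomal domains can be set beside X, the single X chromosome of these male cells, which is subject to dosage compensation. The autosome arms had 3.63 domains per Mb, and the same rule gave 6.33 per Mb on X, where 142 of 1068 regions (13.3%) met it. The median width was 10973 bp on the autosome arms and 12137 bp on X, and the median score was 1.53 ± 0.02 and 1.61 ± 0.04 (SD, n = 2 each). Of the autosomal domains 48.1% were 1 region in each replicate, and of those on X 37.3% were. These differences were not tested.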

How the data were processed

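The deposited files are 3 lists of regions, 1 for each ChIP replicate and 1 for the series, on FlyBase r5 per the file headers. The submitters' processing notes name Bowtie 0.12.7. How regions were called, which thresholds applied, how inputs entered and how replicates were joined is not given in the sources used here. The deposited score is read as log2. Some pairs of repeated scores differ by the log2 of a ratio of integers no larger than 40, with a tolerance of 1e-07. These were 546 of 13366 in replicate 1, 378 of 4851 in replicate 2 and 433 of 5356 in the series list. In the same order, natural logs gave 0, 0 and 1 matches, and decimal logs gave 6, 4 and 5. Most pairs matched no such ratio in any of these logs. The zero point of the score is not known.

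Groups and replicate numbers come from the sample titles. Enriched regions alone were used, and an overlap of 1 bp counted. A domain's score in a replicate is the mean of its pieces weighted by their width inside the domain. Mean ± SD is over the 2 replicates. No test was made, since the rule for domains rests on the values compared. Domains and measures were chosen with earlier results of these data known. The regions named are the 3 widest and 3 highest in series score per arm, 5 each with the most pieces, the widest unbroken span, the lowest score, the largest replicate difference and the largest distance to other regions, the outermost of each arm, the largest groups and those at the width limit. A reference table at hand refers to Release 6, so its positions were not used. Overlap code was tested on simulated lists. Python 3.11.15, numpy 2.4.6, pandas 2.3.3, scipy 1.17.1 and matplotlib 3.10.9 were used. Alternatives changed the least width, the overlap, joining of regions, the lists used and the replicates.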

Additional observations from a re-analysis of the deposited data

How the results depend on the processing

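Of 47 alternative values over 7 results, 19 stayed within the spread and 28 moved. The spread was the SD of the replicates, the exact 95% binomial interval, or 1.5 times the number of domains. For closeness within 50 kb that interval rests on an independence that domains lack. With 1 replicate left out, the covered share and the score difference had to stay within the spread. Each of 2 values always lies within 1 SD of their mean. The number of domains had to stay too, as no region of 8000 bp or more was missing from a replicate. Those alternatives say nothing about stability. A reversal could be called for the score difference alone, and 0 of its alternatives reversed. The distance to the nearest region at 20000 bp, whose order against narrower regions turned, was counted as moved. Least widths of 5000, 10000 and 20000 bp, in this order, gave 876, 223 and 47 domains, of which 77.5%, 35.4% and 12.8% were within 50 kb of another, and which covered 8.76%, 4.19% and 1.75% of the arms; the wider the limit, the fewer regions qualify by construction. Where no construction is named, the cause of a change was not tested. At 5000 bp 62.9% were 1 region in each replicate. The score difference to compact regions was 0.43 at 10000 bp and 0.28 at 20000 bp, where the covered share was 94.2% and the nearest region 3095 bp away. It was 0.42 with scores of the series list, 0.53 with the highest piece, and 0.39 to 0.42 with 1 replicate left out. The share held as 1 region was 68.7% and 78.3% after joining replicate regions within 500 and 1000 bp, and 60.1% to 62.4% with 1 replicate left out, since a single list is then asked. Covered shares were 91.8% to 93.7% with 1 replicate left out and 73.3% with replicate regions above the median score alone. The nearest region was 2418 and 2521 bp away in the lists of replicates 1 and 2 and 2501 bp after joining series regions within 500 bp. Within 20 kb and 100 kb of another domain were 32.8% and 67.8%. Regions of 8000 bp or more covered 3.88% of the arms in replicate 1 and 3.57% in replicate 2. With either replicate left out the number of domains was 351 to 351.

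No paired analysis was possible because the lists used come from 1 group, the ChIP replicates, and the inputs have no list in this work. With depth unknown, a break in a domain cannot be told from a stretch too thinly read to be called. A break at repeated sequence, where reads map poorly, looks the same as one without polymerase.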
